A study of Homo sapiens with 6 samples.

Results

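The enzymes that build pyrimidine nucleotides from scratch were followed in A375 cells, an established human malignant melanoma line, with GRO-seq (global run-on sequencing). Polymerases already engaged on genes run on in isolated nuclei, so the reads report nascent transcription rather than stored mRNA. Cells were kept for 48 h with 25 µM A771726, with 25 µM leflunomide or with the solvent DMSO, with 2 samples in each of the 3 groups (6 in all). Leflunomide is a prodrug whose isoxazole ring opens to give A771726, and both are used as inhibitors of DHODH, so the encoded target of the compounds is itself one of the genes described. The genes were taken by symbol: 8 symbols were looked up, 7 had an entry (CAD, DHODH, UMPS, NME1, NME2, CTPS and CTPS2), and CMPK1 was not analysed here. They fill 14 of the 22442 deposited transcript entries, of 12438 gene symbols. UMPS has 3 entries with 1 set of values, NME1 has 2 entries with 1 set, and NME2 has 5 entries with 4 sets. All groups are of 1 cell line, and no label says that the samples of a group came from separate cultures, so p-values measure only the spread between these samples.

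De novo pyrimidine synthesis begins with CAD, a cytosolic multi-domain enzyme that makes carbamoyl phosphate from glutamine and bicarbonate, joins it to aspartate and closes the dihydroorotate ring. DHODH, in the inner mitochondrial membrane, oxidises dihydroorotate to orotate and passes the electrons to ubiquinone. UMPS attaches orotate to phosphoribosyl pyrophosphate and decarboxylates the product to UMP. Once UMP has been phosphorylated to UDP, nucleoside diphosphate kinases make UTP from it, and NME1 and NME2 are the most abundant of these in many cells. The CTP synthases CTPS (now CTPS1) and CTPS2 turn UTP into CTP. Proliferating melanoma cells draw on this route for RNA and DNA.

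The deposited values are read densities over the promoter and over the gene body, and the traveling ratio, which is promoter density over gene body density and serves as a measure of promoter-proximal pausing. Each deposited value is the authors' mean of the 2 samples of a group, and the unit of density is not stated. The values of single libraries were solved from the 3 means of an entry, and the library whose promoter reads weigh less is called library 1. Library numbers could not be matched to the labels' replicate letters and pair nothing across groups. Library depths are unknown. A single read in a promoter amounted to a density of 0.0241 and 0.0313 in the A771726 libraries, 0.0347 and 0.0376 with leflunomide, and 0.0438 and 0.0520 in DMSO. A read thus stood for a higher density in DMSO than with either compound, so read numbers do not compare directly across groups. Of 10 melanocyte lineage markers, 5 had an entry, with summed gene body densities of 0.343 with A771726, 0.408 with leflunomide and 0.407 in DMSO, of which SOX10 gave 0.273, 0.330 and 0.329. Within that list MITF (0.0156, 0.0226 and 0.0123) and PMEL (0.0172, 0.0224 and 0.0104) were higher in the means of both compounds than in DMSO, and PAX3 and MLANA lower. Of 4 markers of undifferentiated melanoma 3 had an entry, with sums of 0.0643, 0.0823 and 0.0704, mostly AXL at 0.0544, 0.0675 and 0.0544. The fibroblast gene COL1A1 reached at most 0.00375 and the epithelial gene CDH1 0.00175. Over 8706 genes the median log2 change in gene body density was −0.52 for A771726 over DMSO, −0.06 for leflunomide over DMSO and −0.47 for A771726 over leflunomide, so changes with A771726 are also given relative to the median gene. In bulk samples fewer transcribing cells and less transcription per cell cannot be told apart. The scaling of the densities is not stated either, and its part in these medians was not tested.

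The promoters of 4 of the genes are shown because their mean promoter densities differ most from DMSO among the members' main entries (DHODH, CAD) or because gene body density was lowest relative to DMSO (UMPS, NME2). The sequences are RefSeq windows of GRCh38.p14, from 250 bases before to 50 bases after the annotated start, whereas the processing notes of the deposited tables name hg18, and the limits of the authors' promoter windows are not stated. The windows lie at chr16:72008494-72008793, chr2:27217119-27217418, chr3:124730202-124730501 and chr17:51165286-51165585, all on the plus strand. Capitals mark matches on either strand to the E-box CACGTG, the CCAAT box, the GC box GGGCGG and the TATA box TATAAA, and neighbouring GC boxes may overlap.
DHODH promoter: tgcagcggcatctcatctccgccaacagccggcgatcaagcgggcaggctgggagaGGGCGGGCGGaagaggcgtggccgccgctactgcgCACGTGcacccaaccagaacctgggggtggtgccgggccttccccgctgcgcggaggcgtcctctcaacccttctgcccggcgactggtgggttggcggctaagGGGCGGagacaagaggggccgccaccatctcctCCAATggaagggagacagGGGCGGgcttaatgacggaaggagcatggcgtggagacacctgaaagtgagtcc
CAD promoter: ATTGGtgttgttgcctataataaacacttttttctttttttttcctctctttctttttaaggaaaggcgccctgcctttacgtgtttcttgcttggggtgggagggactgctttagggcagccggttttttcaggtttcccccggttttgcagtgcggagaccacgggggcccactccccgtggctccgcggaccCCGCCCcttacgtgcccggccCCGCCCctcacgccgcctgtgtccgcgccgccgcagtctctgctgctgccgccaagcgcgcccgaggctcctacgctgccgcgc
UMPS promoter: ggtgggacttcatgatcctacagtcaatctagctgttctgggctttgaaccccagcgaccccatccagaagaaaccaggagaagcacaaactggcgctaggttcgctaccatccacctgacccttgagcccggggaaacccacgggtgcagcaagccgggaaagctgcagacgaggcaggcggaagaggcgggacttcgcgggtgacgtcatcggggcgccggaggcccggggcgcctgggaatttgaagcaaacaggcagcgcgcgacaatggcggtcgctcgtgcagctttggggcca
NME2 promoter: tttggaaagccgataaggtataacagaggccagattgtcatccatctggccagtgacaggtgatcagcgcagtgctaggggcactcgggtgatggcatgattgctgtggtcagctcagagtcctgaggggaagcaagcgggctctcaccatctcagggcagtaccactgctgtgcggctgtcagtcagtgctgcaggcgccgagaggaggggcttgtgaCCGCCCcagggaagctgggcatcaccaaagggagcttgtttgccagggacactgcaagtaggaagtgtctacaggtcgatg

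The DHODH window held 4 GC boxes, 1 E-box and 1 CCAAT box, the CAD window 2 GC boxes and 1 CCAAT box at its first bases, the NME2 window 1 GC box, and the UMPS window none of the 4 motifs. Of the other members, CTPS held 4 GC boxes, NME1 an E-box and a CCAAT box, and CTPS2 none, while the TATA box was in none of the 7 windows. Among all 35116 windows of this length, 45.0% held a GC box, 34.6% a CCAAT box, 11.5% a TATA box and 7.26% an E-box. The GC content was 67.7% for DHODH, 61.3% for CAD, 62.7% for UMPS and 58.0% for NME2, against a median of 58.7%. NME2 had 9 CpG dinucleotides in its window, against 20 to 31 in the windows of the other 6 members. A window shows 1 start per gene, and which of the 5 NME2 entries it belongs to was not checked. These motif matches and contents describe the sequences alone.

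UMPS and NME2 were the members with the lowest gene body density in A771726 relative to DMSO. UMPS was also lower with leflunomide in every library, as was NME2 by NM_002512, though not by NM_001018139. UMPS (NM_000373) had gene body densities of 0.0287 and 0.0195 in the A771726 libraries, 0.0318 and 0.0478 with leflunomide, and 0.0510 and 0.0808 in DMSO. Every library of either compound lay below both DMSO libraries, and both A771726 libraries lay below both leflunomide libraries. In the limma fit the log2 change of UMPS was −1.36 ± 0.40 (SE) for A771726 over DMSO (95% interval −2.28 to −0.44, adjusted p = 0.153) and −0.69 ± 0.40 for leflunomide over DMSO (−1.61 to 0.23, adjusted p = 1.000). Centred on the library medians, the estimate of UMPS was −0.83 (−1.79 to 0.13, adjusted p = 0.619) for A771726 over DMSO and −0.65 (−1.61 to 0.31, adjusted p = 0.944) for leflunomide over DMSO by limma.

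NME2 is transcribed just downstream of NME1, and read-through transcripts (NME1-NME2) span both genes. Its entries NM_002512 and NM_001198682 share 1 set of values, with gene body densities of 0.0371 and 0.0207 in A771726, 0.0637 and 0.0745 with leflunomide, and 0.0771 and 0.1107 in DMSO. The groups form a descending series without overlap: each A771726 library lay below each leflunomide library, and each leflunomide library below each DMSO library. For these entries limma gave a log2 change of −1.66 ± 0.39 (SE) for A771726 over DMSO (95% interval −2.57 to −0.74, adjusted p = 0.133). The adjusted p of NME2 equals the smallest in that fit of 3500 genes. The adjustment can give many genes the same adjusted p, so this gives NME2 no rank. Centred on the library medians, the NME2 estimate was −1.12 (−2.01 to −0.23, limma adjusted p = 0.525). For leflunomide over DMSO the NME2 estimate was −0.41 (−1.33 to 0.50, limma adjusted p = 1.000). The entry with the highest density, NM_001018137, had 0.0449 and 0.0250 in A771726, 0.0733 and 0.0826 with leflunomide (order of the libraries unknown) and 0.0933 and 0.1281 in DMSO, and stands for NME2 wherever pooled means are counted. Over the 4 sets of values the log2 change of the means for A771726 over DMSO ranged from −1.63 to −1.48, and for leflunomide over DMSO from −0.49 to −0.39, so the choice of entry moved the means little. It did change the overlap of the libraries. By NM_001018139 leflunomide (0.0655 and 0.0710) and DMSO (0.0661 and 0.1139) overlapped.

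The neighbour NME1 (NM_000269, NM_198175) did not share this pattern in its values. Its gene body densities were 0.0356 and 0.0401 in A771726, 0.0574 and 0.0534 with leflunomide, and 0.0374 and 0.0534 in DMSO. The A771726 libraries lay below both leflunomide libraries and overlapped those of DMSO. The limma estimate of NME1 was −0.23 (95% interval −1.02 to 0.55, adjusted p = 0.668) for A771726 over DMSO and 0.29 (−0.49 to 1.08, adjusted p = 1.000) for leflunomide over DMSO. The read-through entries NME1-NME2, which are no members, lay between the pair, at −0.96 ± 0.35 (SE) on the log2 scale for A771726 over DMSO by limma (−1.77 to −0.15, adjusted p = 0.190). Relative to the median gene the mean of NME1-NME2 changed by −0.45 for A771726 over DMSO. The difference between NME1 and NME2 was not tested. Since the genes overlap in read-through transcripts and have closely similar coding sequences, and no label states how reads with several matches were handled, part of the reads of one may have been counted for the other.

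DHODH, the target of both compounds, had the lowest gene body density of the 6 members tested. It was the only one of them with a higher mean in A771726 than in DMSO, where 14.4% of 8706 genes were higher. Relative to the median gene, 4 of the 6 members were higher for A771726 over DMSO (CAD, CTPS, DHODH and NME1). DHODH (NM_001361) had 0.0246 and 0.0087 in the A771726 libraries, 0.0204 and 0.0186 with leflunomide, and 0.0136 and 0.0113 in DMSO. Both leflunomide libraries lay above both DMSO libraries, while one A771726 library lay above and the other below them. Without A771726 library 1 the limma estimate for A771726 over DMSO was −0.42, and without A771726 library 2 it was 0.88, so its sign rests on which library is kept. With all libraries limma gave 0.23 (95% interval −0.84 to 1.29, adjusted p = 0.760), and 0.76 (−0.17 to 1.69, adjusted p = 0.629) centred on the library medians. For leflunomide over DMSO the estimate of DHODH was 0.57 ± 0.46 (SE; −0.50 to 1.64, adjusted p = 1.000 by limma).

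CAD and CTPS had intervals that include 0 for both compounds against DMSO. CAD (NM_004341) had gene body densities of 0.0339 and 0.0278 in A771726, 0.0458 and 0.0519 with leflunomide, and 0.0505 and 0.0354 in DMSO. The A771726 libraries of CAD lay below all the others, and the leflunomide and DMSO libraries overlapped. Its limma estimates were −0.44 (95% interval −1.23 to 0.35, adjusted p = 0.427) for A771726 over DMSO and 0.20 (−0.59 to 0.98, adjusted p = 1.000) for leflunomide over DMSO, and after centring the estimate for A771726 over DMSO was 0.10. CTPS (NM_001905), the CTP synthase linked to proliferating lymphocytes, had 0.0410 and 0.0287 in A771726, 0.0631 and 0.0402 with leflunomide, and 0.0417 and 0.0373 in DMSO. All 3 groups of CTPS overlapped, with limma estimates of −0.19 (−1.05 to 0.67, adjusted p = 0.752) for A771726 over DMSO and 0.34 (−0.52 to 1.20, adjusted p = 1.000) for leflunomide over DMSO. CTPS2 (NM_001144002), its paralog on the X chromosome, had means of 0.0026 in A771726, 0.00455 with leflunomide and 0.00565 in DMSO, below the filter on gene bodies. It was therefore not tested.

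**Figure D1:**
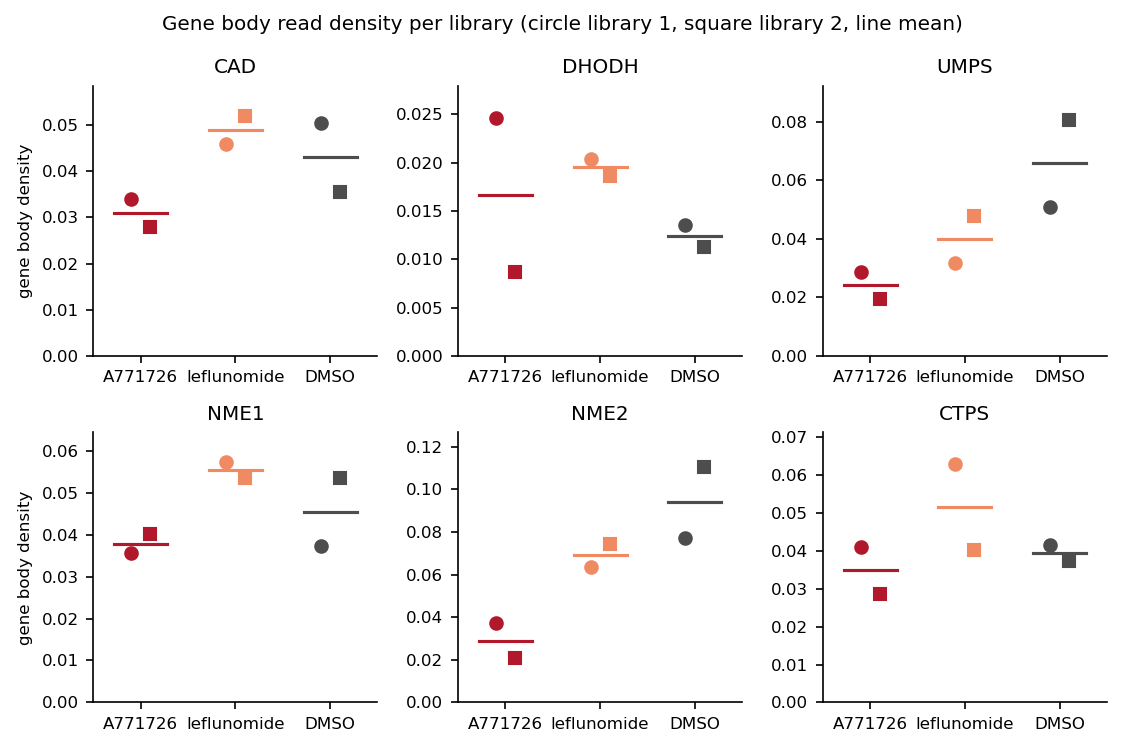
Gene body read density (authors' density units, each axis from 0) of the 6 members with values in all libraries, NME2 by its entry NM_002512, with circles for library 1, squares for library 2 and lines for the deposited mean. At UMPS and NME2 both A771726 libraries and both leflunomide libraries lie below both DMSO libraries, whereas at DHODH the A771726 libraries lie at 0.0246 and 0.0087 on either side of the DMSO values.

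Counted together, 6 of the 7 genes passed the filter on gene body density. For A771726 over DMSO the pooled means of 2 members (NME2 and UMPS) were lower by 2-fold or more and those of 0 members higher, where 18.5% of 8706 genes were lower and 0.839% higher. Relative to the median gene, NME2 alone of the 6 was lower by 2-fold or more, against 5.73% of genes, and 0 were higher, against 3.60%. The median of the 6 members was −0.35, against −0.52 for all genes. With leflunomide over DMSO 0 members passed 2-fold in either direction, against 1.84% of genes higher and 4.49% lower, and the median of the members was 0.23, against −0.06. Both A771726 libraries lay below both DMSO libraries at 3 of 6 members (CAD, NME2 and UMPS), close to the 55.0% of 3500 genes that did so, and above both at 0 members, against 1.97% of genes. With leflunomide, 2 members lay below (UMPS, and NME2 by NM_002512) and 1 above (DHODH), where 21.3% of genes lay below and 13.6% above. After centring each library on its median, NME2 and UMPS lay below DMSO with A771726 (18.8% of genes) and CTPS and DHODH above it (18.6%), and with leflunomide CTPS and DHODH lay above (17.0%) and 0 members below (19.3%).

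No member passed the limma threshold of an adjusted p of 0.05 in any gene body comparison, and limma called 0 of 3500 genes in each of them. At an unadjusted p under 0.05, 2 of 6 members were lower for A771726 over DMSO (UMPS and NME2), against 760 genes (21.7%), 0 members for leflunomide over DMSO, against 158 genes (4.51%), and 1 member (NME2) for A771726 over leflunomide, against 522 genes (14.9%). After centring, 1 member (NME2) had such a p for A771726 over DMSO, against 293 genes (8.37%), and 0 members for leflunomide over DMSO (4.94% of genes) and for A771726 over leflunomide (198 genes, 5.66%). Limma without its trend and robust options also called 0 genes. Without A771726 library 1 limma called 88 genes for A771726 over DMSO, and without DMSO library 1 it called 1 gene for either compound over DMSO, 0 of them members.

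**Figure D2:**
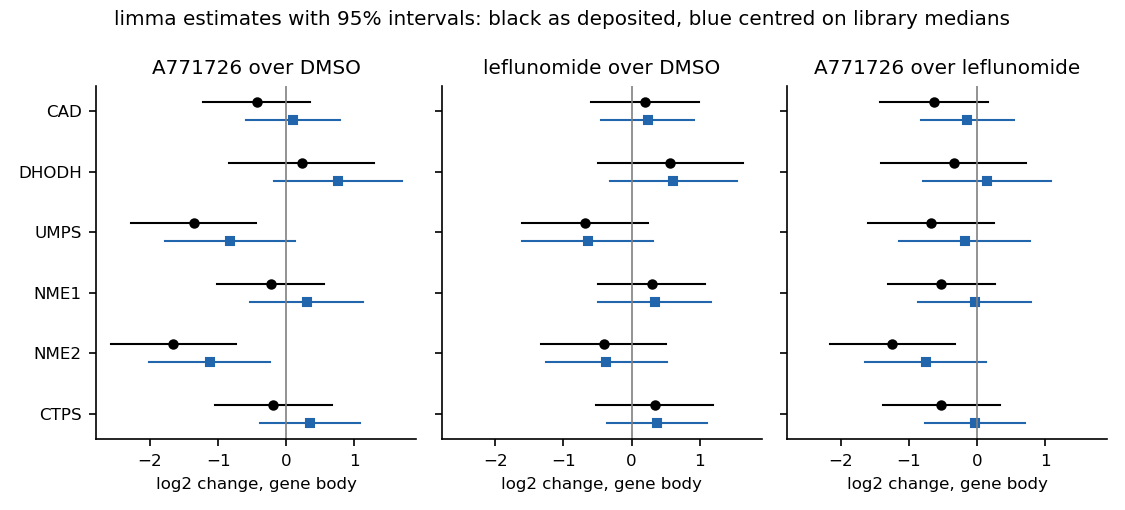
Estimated log2 change in gene body density of 6 members in the 3 comparisons, with 95% intervals from limma, in black for densities as deposited and in blue after centring each library on its median. For A771726 over DMSO the intervals of UMPS (−2.28 to −0.44) and NME2 (−2.57 to −0.74) lie below 0 as deposited, and after centring that of UMPS (−1.79 to 0.13) reaches past 0 and that of NME2 (−2.01 to −0.23) does not.

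Set directly against its parent drug at the same dose and time, A771726 gave lower mean gene body densities at all 6 members past the filter, as it did at 84.7% of 8706 genes. By 2-fold or more, 1 member (NME2) was lower, against 12.4% of genes, and 0 were higher, against 1.03%. Both A771726 libraries lay below both leflunomide libraries at 4 of 6 members (CAD, NME1, NME2 and UMPS), against 55.0% of genes, and above at 0, against 2.49%. After centring 1 member lay below (NME2), against 17.2%, and 0 above, against 18.4%. NME2 had the lowest limma estimate, −1.24 ± 0.39 (SE) for A771726 over leflunomide (95% interval −2.16 to −0.33, adjusted p = 0.333). UMPS had −0.67 (−1.59 to 0.25, adjusted p = 0.372), CAD −0.63 (−1.42 to 0.16, adjusted p = 0.353), NME1 and CTPS −0.53 each (adjusted p = 0.395 and 0.414) and DHODH −0.34 (−1.41 to 0.72, adjusted p = 0.645) in the limma fit. Centred on the library medians, NME2 had −0.75 (−1.64 to 0.14, adjusted p = 0.875 by limma) and the other 5 members lay between −0.18 and 0.15. In promoter density the estimates for A771726 over leflunomide were −2.41 at CAD (−4.94 to 0.13), −1.25 at NME2 (−3.36 to 0.86), −1.08 at DHODH (−3.40 to 1.23), −0.57 at UMPS (−2.25 to 1.11), −0.56 at NME1 (−3.23 to 2.10) and 0.79 at CTPS (−1.54 to 3.11), each with a limma adjusted p of 0.997. Without single libraries these ran from −3.59 to −1.22 at CAD, −1.999 to −0.50 at NME2, −1.49 to −0.68 at DHODH, −1.08 to −0.05 at UMPS, −1.50 to 0.37 at NME1 and −0.0009 to 1.58 at CTPS. In gene body density the intervals of the 5 members other than NME2 hold both 0 and a 2-fold lower value, so a difference of that size was not resolved between the compounds. Promoters 2-fold or more lower in the pooled means for A771726 over leflunomide were those of CAD, DHODH and CTPS2, against 30.6% of genes, and 0 were higher, against 13.5%. Both A771726 promoter libraries lay below both leflunomide libraries at CAD, DHODH and NME2 (by NM_002512), against 22.1% of 3662 genes, and above at 0 members, against 8.49%.

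With A771726 the mean promoter density was higher than in DMSO at DHODH and lower at CAD, on few reads. DHODH had a promoter density of 0.0962 and 0.1565 in the A771726 libraries, 0.2081 and 0.376 with leflunomide, and 0.0438 and 0.052 in DMSO. Those values are 4 and 5 reads with A771726, 6 and 10 reads with leflunomide, and 1 read in each DMSO library. The groups did not overlap as deposited, with leflunomide the highest and DMSO the lowest. After centring on the library medians, which were 0.1313 and 0.052 in the DMSO libraries, the A771726 libraries of DHODH no longer lay above both DMSO libraries, while those of leflunomide did. The summed reads have exact Poisson 95% intervals of 4.12 to 17.1 for A771726 (9 reads), 9.15 to 26.0 for leflunomide (16 reads) and 0.242 to 7.22 for DMSO (2 reads), which cover counting error only and no difference in depth. By limma the promoter change of DHODH was 1.11 ± 1.18 (SE) for A771726 over DMSO (95% interval −1.21 to 3.43, adjusted p = 0.994) and 2.19 ± 1.18 for leflunomide over DMSO (−0.12 to 4.51, adjusted p = 0.992). No deposited entry has a mean DMSO ratio above 7.5, whereas 15.8% of entries pass 7.5 with A771726 and 13.3% with leflunomide. The part of that limit in the DMSO values of DHODH, of the other members and of all genes was not tested.

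CAD had promoter densities of 0.0722 and 0 in A771726, 0.1387 and 0.2632 with leflunomide, and 0.5252 and 0.052 in DMSO. In reads these are 3 and 0 with A771726, 4 and 7 with leflunomide, and 12 and 1 in DMSO. The DMSO mean of CAD therefore comes almost wholly from library 1, and DMSO library 2 lies below A771726 library 1. The limma estimate for A771726 over DMSO was −2.30 (95% interval −4.84 to 0.24, adjusted p = 0.994), or −0.82 without DMSO library 1 and −3.78 without DMSO library 2. For leflunomide over DMSO the estimate of CAD was 0.11 (adjusted p = 0.992 by limma), which became 1.59 without DMSO library 1 and −1.37 without DMSO library 2.

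**Figure D3:**
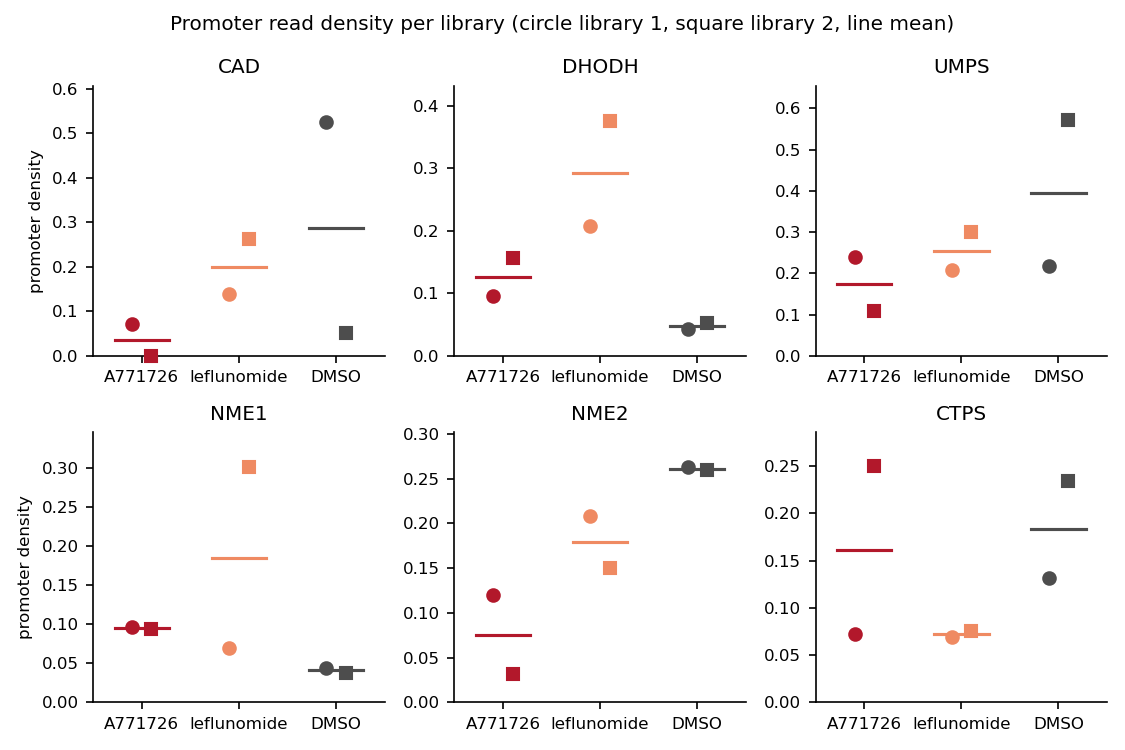
Promoter read density (authors' density units, each axis from 0) of the same 6 members, with circles for library 1, squares for library 2 and lines for the deposited mean. DHODH is lowest in both DMSO libraries (0.0438 and 0.052), and the DMSO mean of CAD joins a library at 0.5252 with one at 0.052.

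At the other members the promoter reads were also few. UMPS had promoter densities of 0.2405 and 0.1092 in A771726, 0.2081 and 0.3008 with leflunomide (6 and 8 reads), and 0.2188 and 0.5719 in DMSO (5 and 11 reads). All 3 groups of UMPS overlapped, with limma estimates of −1.05 (95% interval −2.73 to 0.64, adjusted p = 0.994) for A771726 over DMSO and −0.48 (−2.16 to 1.20, adjusted p = 0.992) for leflunomide over DMSO. NME2 (NM_002512) had 0.1203 and 0.0313 in A771726 (5 reads and 1 read), 0.2081 and 0.1504 with leflunomide (6 and 4 reads), and 0.2626 and 0.2599 in DMSO (6 and 5 reads). By this entry the A771726 libraries of NME2 were lowest and the DMSO libraries highest, without overlap. By NM_001018137 all groups overlapped, with 0.1443 and 0 in A771726, 0.0431 and 0.1816 with leflunomide, and 0.0875 and 0.104 in DMSO. By NM_001018138 and NM_001018139 leflunomide and DMSO overlapped. The limma estimate for NME2 was −1.77 (−3.88 to 0.34, adjusted p = 0.994) for A771726 over DMSO and −0.52 (−2.63 to 1.59, adjusted p = 0.992) for leflunomide over DMSO.

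NME1 had promoter densities of 0.0962 and 0.0939 in A771726 (4 and 3 reads), 0.0694 and 0.3008 with leflunomide (2 and 8 reads), and 0.0438 and 0.038 in DMSO. Both compounds' libraries lay above those of DMSO at NME1, which in DMSO are at or under 1 read each. CTPS had 0.0722 and 0.2504 in A771726 (3 and 8 reads), 0.0694 and 0.0752 with leflunomide (2 reads each), and 0.1313 and 0.2346 in DMSO. The leflunomide libraries of CTPS lay below both DMSO libraries and the A771726 libraries spread past them on both sides. CTPS2 had a mean promoter density of 0 in A771726, 0.0347 with leflunomide and 0.0192 in DMSO.

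All 7 genes passed the filter on promoter density. In the pooled means 1 member was higher by 2-fold or more for A771726 over DMSO (DHODH) and 3 were lower (CAD, UMPS and CTPS2), against 20.8% of 8837 genes higher and 26.0% lower. The NME2 entry counted there had −0.34 on the log2 scale, whereas NM_002512 had −1.58, NM_001018138 −2.15 and NM_001018139 −2.24, so the place of NME2 in that count depends on the entry. For leflunomide over DMSO 2 members were higher (DHODH and NME1) and 1 lower (CTPS), against 30.6% of genes higher and 16.0% lower. Of the 6 members with library values, 2 had both leflunomide libraries above both DMSO libraries (DHODH and NME1), against 17.1% of 3662 genes, and 2 had both A771726 libraries above them (DHODH and NME1), against 11.6%. Below DMSO in both libraries lay 2 members with leflunomide (CTPS and NME2), against 10.8%, and 1 with A771726 (NME2), against 16.0%. NME2 enters these library counts, also after centring, by the values of NM_002512, and other entries of the gene overlap as given above. After centring each library on its median, NME1 alone lay above DMSO with A771726 (14.4% of genes) and CAD and NME2 below (13.1%), and with leflunomide DHODH alone lay above (13.0%) and CTPS and NME2 below (15.7%). The median promoter density was 0.0962 and 0.0626 in the A771726 libraries, 0.1387 and 0.1073 with leflunomide, and 0.1313 and 0.052 in DMSO. No member was called by limma in promoter density, and 0 had an unadjusted p under 0.05, against 3.90% of promoters for A771726 over DMSO and 2.46% for leflunomide over DMSO. Limma called 13 promoters for A771726 over DMSO (0.355%), 12 for leflunomide over DMSO (0.328%) and 0 for A771726 over leflunomide, where 89 (2.43%) had an unadjusted p under 0.05, and 12 of the calls against DMSO with each compound were SNAR gene copies, a family of near-identical small RNA genes. Without DMSO library 1 limma called 34 promoters for A771726 over DMSO and 40 for leflunomide over DMSO, and without A771726 library 1 it called 8 for A771726 over leflunomide, 0 of them members.

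The traveling ratio joins these readouts and inherits the few promoter reads. DHODH had ratios of 3.91 and 18.0 in the A771726 libraries, 10.2 and 20.2 with leflunomide, and 3.22 and 4.60 in DMSO. Both leflunomide libraries lay above both DMSO libraries, and A771726 library 1 lay between those of DMSO. In the means, 10.9 with A771726 and 15.2 with leflunomide stood against 3.91 in DMSO, which are folds of 2.80 and 3.89 in the authors' deposited table. CAD had ratios of 2.13 and 0 in A771726, 3.03 and 5.07 with leflunomide, and 10.4 and 1.47 in DMSO, and its fold of 0.179 for A771726 over DMSO in the authors' deposited table again rests on DMSO library 1. UMPS had overlapping ratios in all groups: 8.38 and 5.60 with A771726, 6.54 and 6.29 with leflunomide, and 4.29 and 7.08 in DMSO. In the means of UMPS the log2 change for A771726 over DMSO was −1.10 in promoter density and −1.37 in gene body density. NME1 had 2.70 and 2.34 with A771726, 1.21 and 5.63 with leflunomide, and 1.17 and 0.712 in DMSO. CTPS had 1.76 and 8.72 with A771726, 1.10 and 1.87 with leflunomide, and 3.15 and 6.29 in DMSO, so its lower leflunomide ratio did not overlap with DMSO.

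For NME2 the ratio depended on the entry. NM_002512 had 3.24 and 1.51 with A771726, 3.27 and 2.02 with leflunomide, and 3.41 and 2.35 in DMSO, which overlap in all groups. In the means the log2 change of the ratio for A771726 over DMSO ran from −1.29 at NM_001018139 to 0.88 at NM_001018137, so its sign differed between entries of the gene. Of the 6 members with a finite ratio above 0 in every group, 2 were higher by 2-fold or more for A771726 over DMSO (DHODH and NME1) and 1 lower (CAD), against 34.6% and 17.1% of 5173 genes. For leflunomide over DMSO 2 were higher (DHODH and NME1) and 1 lower (CTPS), against 27.9% and 15.3% of genes. For A771726 over leflunomide 1 was higher (CTPS) and 1 lower (CAD), against 26.9% and 20.9% of genes. The ratio was described and not tested. No mean DMSO ratio passes 7.5, and the part of that limit in the counts against DMSO was not tested.

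**Figure D4:**
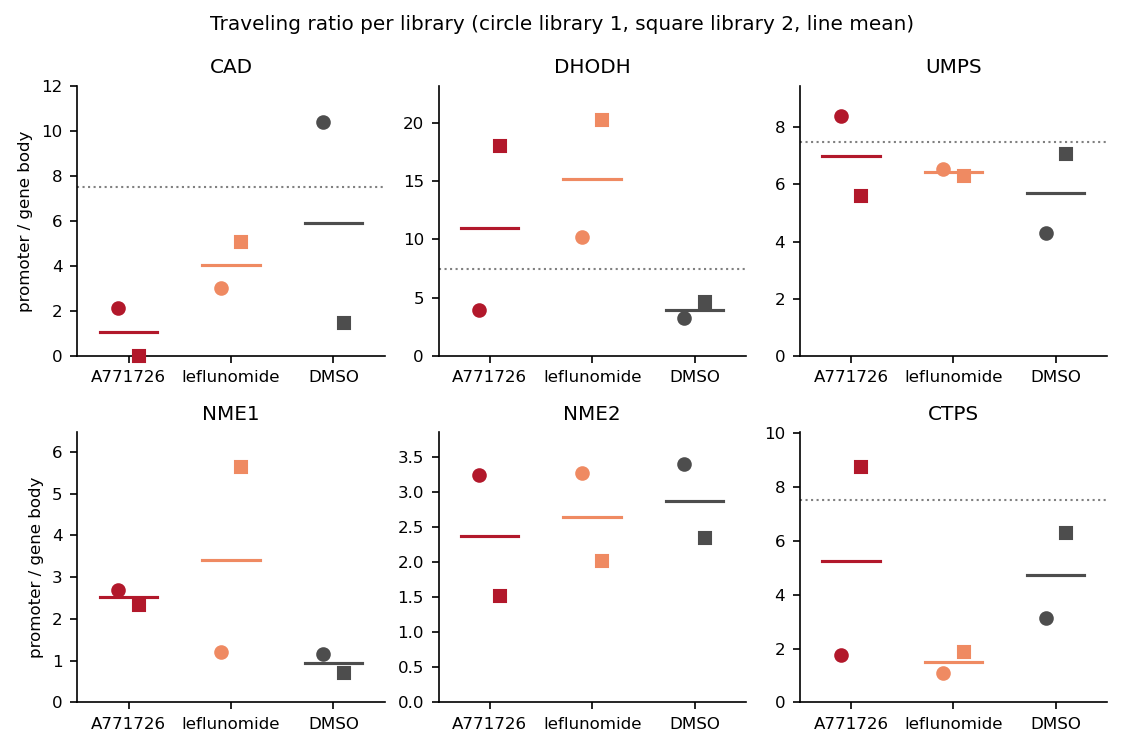
Traveling ratio (promoter density over gene body density, no unit) of the same 6 members in each library, with circles for library 1, squares for library 2 and lines for the deposited mean. The dotted line, where the axis reaches it, marks 7.5, the highest mean DMSO ratio in the deposited tables, and DHODH passes it in both leflunomide libraries and in 1 A771726 library.

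By gene body density the members stood in the order NME2, UMPS, NME1, CAD, CTPS, DHODH and CTPS2 in DMSO, using the entry with the highest density for each gene. The order in A771726 was NME1, NME2, CTPS, CAD, UMPS, DHODH and CTPS2, so UMPS stood near the top of the order in DMSO and near its end with A771726. In percentiles of all genes UMPS lay at 69.6 with A771726, 74.4 with leflunomide and 84.6 in DMSO, and DHODH at 58.1, 51.2 and 36.6 in the same order. In DMSO both NME2 libraries lay above those of UMPS by NM_001018137, the entry used here, but overlapped them by the other NME2 entries. The libraries of UMPS overlapped those of NME1, and NME1, CAD and CTPS overlapped one another. DHODH lay below these 3 in both DMSO libraries. In A771726 the libraries of UMPS (0.0287 and 0.0195) overlapped those of NME2, CAD and DHODH, and the higher one equalled the lower of CTPS. Its place among these genes in A771726 is therefore not resolved.

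The genes with the most similar gene body means were sought among genes within 2-fold of a member in DMSO, by distance over the 3 log2 means, a measure on 3 values only. Nearest to DHODH were CHST11 (distance 0.092), LOC100132832 (0.097) and ZCCHC14 (0.11) among 3475 genes. Nearest to UMPS were SNORA22 (0.11), CAND2 (0.14) and WBSCR27 (0.17) among 3331 genes. Nearest to NME2 were LOC93622 (0.034), LINC00277 (0.077) and PYGO2 (0.15) among 1930 genes.

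The counts of genes around the pathway past 2-fold in the pooled gene body means are to be read against 18.5% of all genes lower and 0.839% higher for A771726 over DMSO, and 4.49% lower and 1.84% higher for leflunomide over DMSO, and list medians against −0.52 and −0.06 for all genes. Among 13 listed nucleotide kinases and CTP synthases, 8 passed the filter, of which 1 (NME2) was lower by 2-fold or more and 0 higher for A771726 over DMSO, and 0 passed 2-fold for leflunomide over DMSO. Their median was −0.44 for A771726 over DMSO and 0.09 for leflunomide over DMSO. The kinase NME3 had mean densities of 0.0885 with A771726, 0.0873 with leflunomide and 0.0741 in DMSO, and the mitochondrial NME4 had 0.0687, 0.0629 and 0.0554 in the same order. Of the 9 measured genes of deoxynucleotide and thymidylate synthesis, 1 was lower by 2-fold or more for A771726 over DMSO and 0 higher, with a list median of −0.23. That gene was DCTPP1, a dCTP pyrophosphatase, with means of 0.0032 with A771726, 0.0173 with leflunomide and 0.0107 in DMSO, and a log2 change of −1.26 for A771726 over DMSO, or −0.74 relative to the median gene, which is under 2-fold.

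Thymidylate synthase, TYMS, had gene body densities of 0.0416 and 0.0283 in the A771726 libraries, 0.0635 and 0.0813 with leflunomide, and 0.0662 and 0.0772 in DMSO. Its A771726 libraries lay below all the others, and limma gave −1.01 (95% interval −1.83 to −0.19, adjusted p = 0.182) for A771726 over DMSO and 0.01 for leflunomide over DMSO. Of 3500 genes, 55.0% had both A771726 libraries below both of DMSO, and 55.0% below both of leflunomide. Relative to the median gene the mean of TYMS changed by −0.47 for A771726 over DMSO. The ribonucleotide reductase subunit RRM2 had log2 changes of −0.20 for A771726 over DMSO and 0.04 for leflunomide over DMSO. The serine hydroxymethyltransferase SHMT2 had means of 0.0793 with A771726, 0.0630 with leflunomide and 0.106 in DMSO.

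Of 15 listed feeder genes of aspartate, glutamine, bicarbonate and phosphoribosyl pyrophosphate, 6 passed the filter and 0 reached 2-fold with either compound, with list medians of −0.59 for A771726 over DMSO and −0.11 for leflunomide over DMSO. The glutamine transporter SLC1A5 came closest, with densities of 0.0439 and 0.0360 in A771726, 0.0262 and 0.0418 with leflunomide, and 0.0782 and 0.0578 in DMSO. All libraries of either compound lay below those of DMSO at SLC1A5, with limma estimates of −0.73 (adjusted p = 0.278) for A771726 over DMSO and −0.97 (adjusted p = 1.000) for leflunomide over DMSO. Relative to the median gene the mean of SLC1A5 changed by −0.22 for A771726 over DMSO and −0.90 for leflunomide over DMSO. Of 3500 genes, 55.0% had both A771726 libraries below both of DMSO, and 21.3% both leflunomide libraries. The mitochondrial aspartate aminotransferase GOT2 had means of 0.0204 with A771726, 0.0228 with leflunomide and 0.0361 in DMSO, the glutaminase gene GLS2 had 0.0234, 0.0275 and 0.0331, and PRPS2, a phosphoribosyl pyrophosphate synthetase, had 0.0137, 0.0201 and 0.0196.

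Among 12 measured genes of complex II, complex III and ubiquinone synthesis, into whose pool DHODH passes its electrons, 1 was at least 2-fold lower for A771726 over DMSO (UQCRQ, against 18.5% of all genes) and 1 at least 2-fold higher for leflunomide over DMSO (COQ6, against 1.84%). Their medians were −0.66 and −0.09. Relative to the median gene UQCRQ had −0.49 in place of −1.01, and 0 genes of the list were then 2-fold lower. COQ6, a hydroxylase of ubiquinone synthesis, had densities of 0.0191 and 0.0142 in A771726, 0.0275 and 0.0298 with leflunomide, and 0.0099 and 0.0138 in DMSO. Both compounds' libraries lay above those of DMSO at COQ6, with a limma estimate of 1.15 ± 0.33 (SE; 95% interval 0.37 to 1.92, adjusted p = 1.000) for leflunomide over DMSO. UQCRQ had means of 0.103 with A771726, 0.198 with leflunomide and 0.210 in DMSO, and cytochrome c1, CYC1, had 0.125, 0.104 and 0.135, both subunits of complex III. The ubiquinone synthesis gene COQ9 had 0.0652, 0.109 and 0.111, and UQCRFS1, the Rieske protein of complex III, had 0.0414, 0.0463 and 0.0743 in the same order.

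Of 11 listed regulators of CAD and DHODH, 7 passed the filter and 0 reached 2-fold with either compound, where 18.5% and 4.49% of all genes were lower, with medians of −0.43 for A771726 over DMSO and −0.09 for leflunomide over DMSO. PRKACA, a catalytic subunit of protein kinase A, had means of 0.0224 with A771726, 0.0263 with leflunomide and 0.0426 in DMSO. RHEB, an activator of mTOR, had means of 0.0250, 0.0270 and 0.0290 in the same order, and the transcription factor SP1, which binds GC boxes, had 0.0176, 0.0276 and 0.0220.

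**Figure D5:**
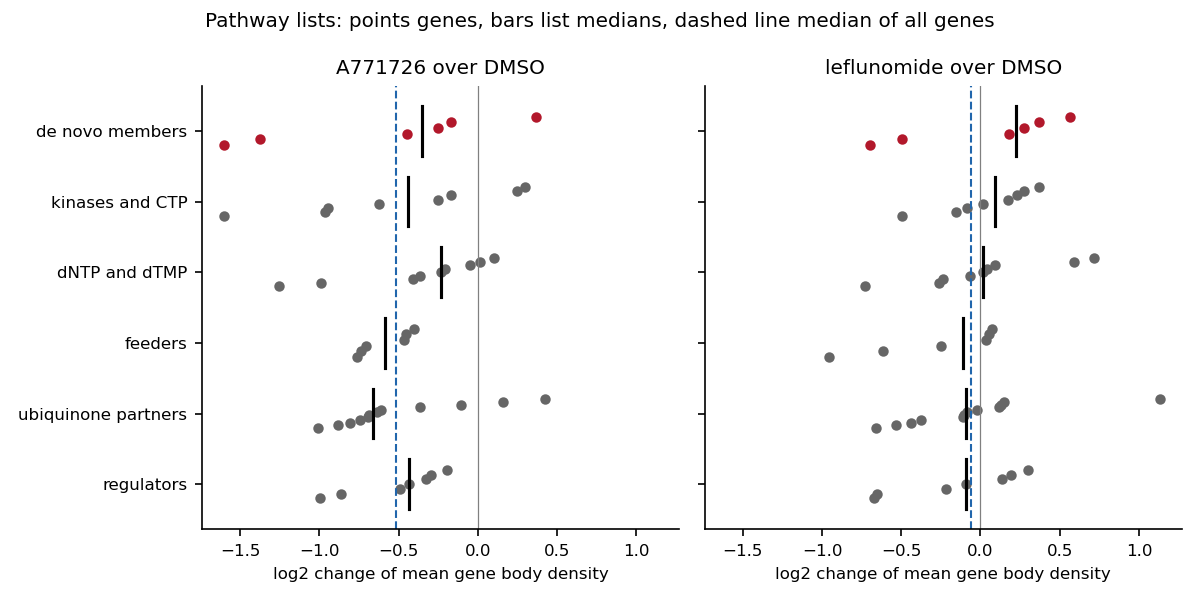
Log2 change of the mean gene body density for A771726 over DMSO (left) and leflunomide over DMSO (right), with a point per gene past the filter, a bar for the list median and a dashed line for the median of all genes (−0.52 and −0.06); NME1, NME2 and CTPS stand both among the members and in the kinase list. The members spread from −1.60 at NME2 to 0.36 at DHODH for A771726 over DMSO.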

How the data were processed

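For the GRO-seq libraries of A375 cells the submitters' processing notes name hg18, Bowtie 0.12.9 and bedtools. Neither the window limits nor the scaling is stated. Per the file headers, the deposited tables hold mean promoter and gene body densities per group, the mean traveling ratio, and its fold over DMSO (A771762 in the headers was read as A771726).

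Library densities carry 4 decimals, so the 3 means of an entry were solved for its pair of libraries. A single solution was found for 95.2% of entries with all 3 means above 0 in A771726, 96.1% in leflunomide and 92.1% in DMSO, and 0 entries had none. After moving the ratio by 1 part in 100000, 1.07%, 0.379% and 0.461% had any. Libraries were told apart by the density of 1 promoter read: 79.8%, 77.3% and 77.8% of promoter values lay on its multiples, the rest did not, so count tests were not used. The solution of pairs and the limma fit were tested on simulated data.

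For means, 1 entry per symbol (highest gene body density) at or above the 30th percentile was kept, and log2 used pseudocounts of 0.0022 (gene body) and 0.01735 (promoter), which understates changes of low genes. Genes solved in all 6 libraries with the library known were fitted with limma 3.58.1 (R 4.3.3; trend, robust; all groups; Benjamini-Hochberg over all genes). This selects genes with promoter reads in each group. The fit has 2 libraries per group. Named genes were the members, list genes past 2-fold with either compound plus at most 4 per list by density, and the 3 nearest genes to DHODH, UMPS and NME2; some of these genes are not reported here. Members and lists were chosen with earlier results of these data known. Alternatives were a 5 times larger pseudocount, other filters, another entry, centring, limma options and leaving out libraries.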

Additional observations from a re-analysis of the deposited data

How the results depend on the processing

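No paired analysis was possible because the deposited columns carry no replicate letters. No member was called by limma under any alternative run. A pseudocount 5 times larger left 0 members lower by 2-fold or more in gene body density for A771726 over leflunomide, and in promoter density 0 higher and 1 lower for A771726 over DMSO, 0 lower for leflunomide over DMSO and 1 lower for A771726 over leflunomide. Centring left 1 member lower by 2-fold or more in gene body density for A771726 over DMSO, against 5.73% of genes, and 0 for A771726 over leflunomide. It gave 1 member higher in promoter density for A771726 over leflunomide. Shares of all genes are not given for the other counts under the larger pseudocount and centring. Those counts show only how far the processing moves them and are no result about the members. Centring turned the limma gene body estimate for A771726 over DMSO to 0.10 at CAD, 0.30 at NME1 and 0.34 at CTPS, and that for A771726 over leflunomide to 0.15 at DHODH. It turned the CAD promoter estimate for leflunomide over DMSO to −0.35. Each of these moves is the shift shared by all genes of a comparison, which centring removes by construction.

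Without single libraries, each lone sample being assumed to vary like the other groups, the limma gene body estimates for A771726 over DMSO ran from −0.42 to 0.88 at DHODH, −0.48 to 0.014 at NME1, −0.43 to 0.053 at CTPS, −2.05 to −1.27 at NME2 and −1.68 to −1.04 at UMPS. They ran from −0.0485 to 0.44 at CAD for leflunomide over DMSO and from −0.99 to 0.31 at DHODH for A771726 over leflunomide. The promoter estimates ran from −1.11 to 0.47 at CTPS for A771726 over DMSO, −1.37 to 1.59 at CAD and −1.14 to 0.18 at UMPS for leflunomide over DMSO, and −1.50 to 0.37 at NME1 and −0.0009 to 1.58 at CTPS for A771726 over leflunomide. The genes called in all ran from 0 to 88 (gene bodies, A771726 over DMSO; 88 without A771726 library 1) and 0 to 1 (leflunomide over DMSO). For promoters they ran from 12 to 34 (A771726 over DMSO), 12 to 40 (leflunomide over DMSO, the highest of both without DMSO library 1) and 0 to 8 (A771726 over leflunomide, the highest without A771726 library 1). The cause was not tested. Few promoter reads limit every promoter and ratio value.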
